A study of Arabidopsis thaliana with 3 samples.

Results

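The Aux/IAA and auxin response factor (ARF) genes are the core of the nuclear auxin response. In all, 39 loci were taken by locus name, 29 Aux/IAA genes (IAA1 to IAA20 and IAA26 to IAA34) and 10 ARF genes (ARF1, ARF2, ARF5, ARF6, ARF7, ARF8, ARF10, ARF16, ARF17 and ARF19), out of 27432 protein-coding genes. Their peaks were read from chromatin immunoprecipitation sequencing (ChIP-seq) of PISTILLATA (PI) and APETALA3 (AP3), the MADS-domain partners that specify petals and stamens, in Arabidopsis flowers of about stage 4 to 5. The 2 libraries analysed, 1 per group, came from plants of genotype PI-GFP AP1-GR ap1 cal and AP3-GFP AP1-GR ap1 cal. A negative control of genotype AP1-GR ap1 cal, without a GFP-tagged factor, was not analysed here. Every group consisted of Ler plants, raised at 20 degrees Celsius to an age of about 4 weeks and sampled 4 days after 10 µM dexamethasone, and anti-GFP antibody was used for each. All 3 groups carried the ap1 and cal mutations and an AP1-GR fusion driven by the 35S promoter, which dexamethasone activates to start many flowers at once, so the binding was measured in flowers started by that fusion and not in wild-type plants.

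Auxin lets receptors of the TIR1/AFB family bind Aux/IAA proteins through a short degron and mark them for destruction. Aux/IAA proteins otherwise hold ARF proteins, which bind DNA, in a repressed state by recruiting TOPLESS co-repressors. In flowers, auxin is known for placing organ primordia and, through ARF6 and ARF8, for the late growth of petals, stamens and the gynoecium.

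For each listed gene the authors' tables give the highest score in 5 windows. They are the gene itself, the 0 to 1000 bp downstream of it, and 3 upstream stretches of 0 to 1000, 1000 to 2000 and 2000 to 3000 bp. A gene absent from a table has no listed peak, which may mean a peak below the authors' threshold. The score is the authors' own Poisson score. It has no stated normalization for library size, so its size is read within a list only. The PI list held 1852 peaks with scores from 25.3 to 9217, and the AP3 list held 1524 peaks with scores from 26.6 to 9926. The depth of sequencing is unknown, because read numbers were not used here. Both lists were made against the same negative control. There are no replicates, so no value below has a replicate error or a p-value.

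PI was listed at 10 of the 39 genes (25.6%), against 8.69% of protein-coding genes, a share at which 3.39 of 39 would be listed. They were IAA27, ARF6, IAA4, ARF5, IAA9, IAA2, IAA26, IAA18, IAA17 and IAA15, in order of score. AP3 was listed at 5 genes (12.8%), against 7.26% of protein-coding genes, or 2.83 of 39. They were IAA27, IAA4, ARF6, IAA2 and IAA3. The AP3 count is within a few genes of its background, and the PI count is the further of the pair from its own. When peaks under the median score of their list were removed, 6 members were listed for PI, against 4.32% of protein-coding genes, and 4 for AP3, against 3.65%.

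The same 4 genes, IAA27, IAA4, IAA2 and ARF6, were listed for both factors, where 5.32% of protein-coding genes were. That is 40% of the PI-listed members and 80% of the AP3-listed members, beside 61.2% and 73.3% over all listed protein-coding genes. PI alone was listed at 6 members (3.37% of protein-coding genes) and AP3 alone at 1 member (1.94%). The remaining 28 members were in neither table. These were IAA1, IAA5, IAA6, IAA7, IAA8, IAA10, IAA11, IAA12, IAA13, IAA14, IAA16, IAA19, IAA20, IAA28, IAA29, IAA30, IAA31, IAA32, IAA33 and IAA34, and ARF1, ARF2, ARF7, ARF8, ARF10, ARF16, ARF17 and ARF19.

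**Figure D1:**
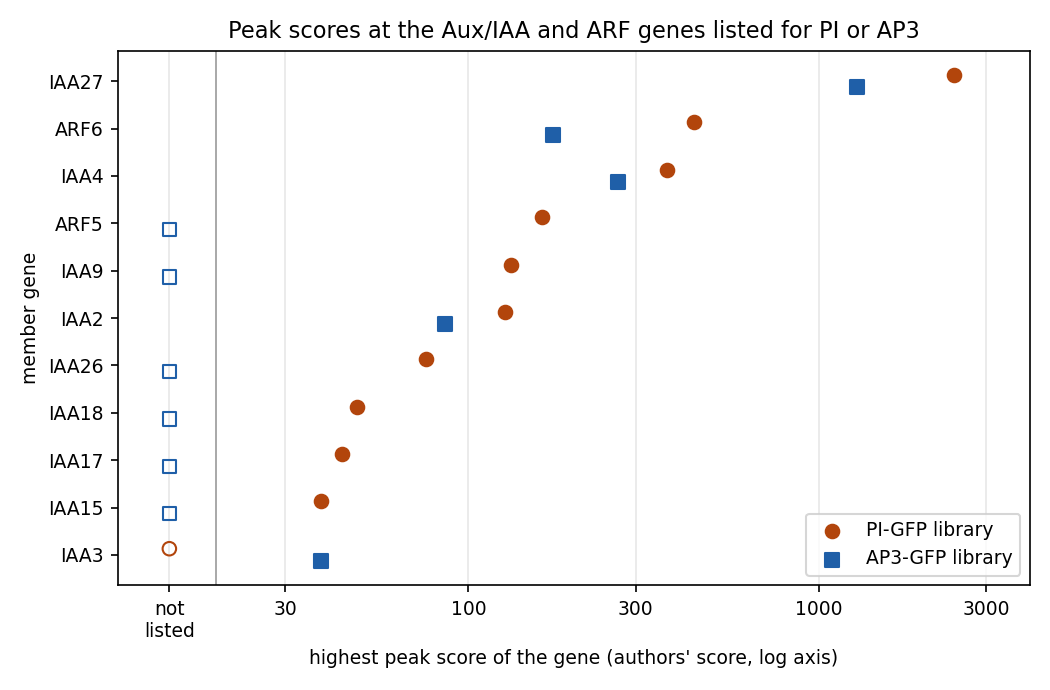
Highest authors' peak score (log axis) of the 11 members listed for at least 1 factor, with circles for PI-GFP, squares for AP3-GFP and open symbols for a gene not listed. IAA27 is the highest in both libraries (2428 for PI and 1285 for AP3), and all 6 genes listed for PI alone have PI scores of 162 or less.

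By role, the listed genes belonged to 2 of the 5 groups. Among the 23 Aux/IAA genes whose proteins carry the canonical degron, 8 were listed for PI and 4 for AP3. None of the 6 Aux/IAA genes whose proteins lack it (IAA20 and IAA30 to IAA34) was listed for either factor. Among the 5 ARFs of the activator class (ARF5, ARF6, ARF7, ARF8 and ARF19), 2 were listed for PI and 1 for AP3. ARF1 and ARF2, which are repressor-class factors, and ARF10, ARF16 and ARF17, whose transcripts are cleaved under guidance of miR160, were not listed. Groups of 2 to 6 genes are too small to set a count of 0 apart from background shares of 8.69% and 7.26%. ARF3 and ARF11, which are outside these 5 groups, were listed for both factors, as given below.

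IAA27 (AT4G29080; symbol PAP2), an Aux/IAA protein with a degron first described as a phytochrome-associated protein, had the highest peak of the family in both libraries. The PI peak, with a score of 2428, ranked 4 of 1852 and lay 0 to 1000 bp upstream, at chromosome 4, 14325034 to 14326490 (TAIR10, as all positions here). The AP3 peak in the same window scored 1285, ranked 9 of 1524 and spanned 14325230 to 14326463. Both were among the widest peaks of their lists, with a width of 1457 bp for PI (rank 10) and 1234 bp for AP3 (rank 11). Each therefore extended beyond the 1000 bp window that held its score. The maxima were 9 bp apart, at 14325515 for PI and 14325506 for AP3.

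IAA27 also had a second, weak AP3 peak, listed inside the gene with a score of 39.6 (rank 1126) at 14325065 to 14325123. It was 59 bp wide, with 106 bp between it and the main AP3 peak. The single wide PI peak covered both AP3 peaks, so the libraries differ there in how the region was divided into peaks. No other gene was listed for any of these peaks.

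IAA4 (AT5G43700; symbol ATAUX2-11), one of the early auxin-induced Aux/IAA genes, scored 368 for PI (rank 222) and 267 for AP3 (rank 145), in both cases 0 to 1000 bp upstream. The PI peak spanned chromosome 5, 17549738 to 17550471 (734 bp), and contained the whole AP3 peak at 17549816 to 17550468 (653 bp). Although the peaks were nearly coextensive, their maxima were 221 bp apart, at 17549974 for PI and 17550195 for AP3. Of the 1025 shared peaks in the series, 31 had maxima at least this far apart, and the median distance was 23 bp. The overlap exceeded 50% of each peak, but the peak was no longer shared when maxima had to lie within 100 bp.

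IAA2 (AT3G23030), an auxin-induced Aux/IAA gene, had peaks 1000 to 2000 bp upstream in both libraries, with scores of 127 for PI (rank 656) and 85.8 for AP3 (rank 531). These were narrow, at chromosome 3, 8183018 to 8183296 for PI (279 bp) and 8183018 to 8183248 for AP3 (231 bp). They began at the same base, and their maxima were 5 bp apart. The peak was also listed 2000 to 3000 bp upstream of AT3G23040, a locus annotated as an unknown protein in the deposited tables. IAA7 (AT3G23050), next to IAA2 among the protein-coding genes of the reference table, was listed for neither factor.

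ARF6 (AT1G30330), which acts with ARF8 in the growth of stamens and petals and in gynoecium maturation, had a peak 2000 to 3000 bp upstream in both libraries. It scored 440 for PI (rank 174) at chromosome 1, 10692870 to 10693467 (598 bp). For AP3 it scored 175 (rank 251) at 10692996 to 10693405 (410 bp), and the maxima were 70 bp apart. The pair had a higher PI to AP3 score ratio than 76.4% of the shared peaks, the highest position of the 4 members, while IAA4 exceeded 40.8%, IAA2 45.4% and IAA27 59.3%. In order of this ratio, the 4 members thus lay on both sides of the middle of all shared peaks.

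**Figure D2:**
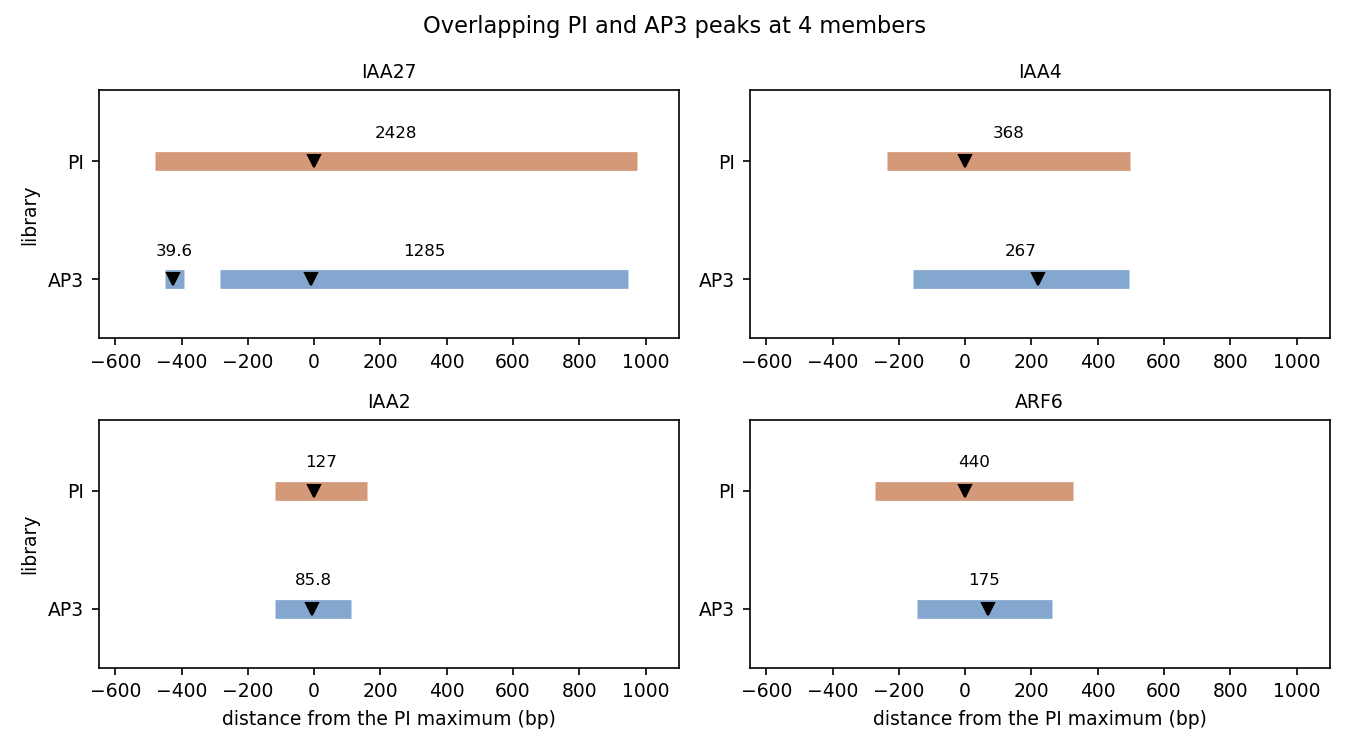
Extent of the PI and AP3 peaks (bars) and their maxima (triangles) at the 4 members listed for both factors, in bp from the PI maximum along the chromosome, with the authors' scores above the bars. Each main AP3 peak lies within the PI peak, maxima nearly coincide at IAA27 (9 bp) and IAA2 (5 bp), and they are 221 bp apart at IAA4.

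At all 4 of these genes the main AP3 peak lay wholly inside the PI peak and was the narrower. Over the series, the PI peak was the wider in 862 of 1025 shared pairs (84.1%). How many of those pairs had the AP3 peak wholly inside was not counted, so nothing particular to the members is read from this. The AP3 peak covered 68.6% of the PI peak at ARF6, 82.8% at IAA2, 84.7% at IAA27 and 89.0% at IAA4. The median distance between maxima at the members was 39.5 bp, against 23 bp over all shared peaks.

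**Figure D3:**
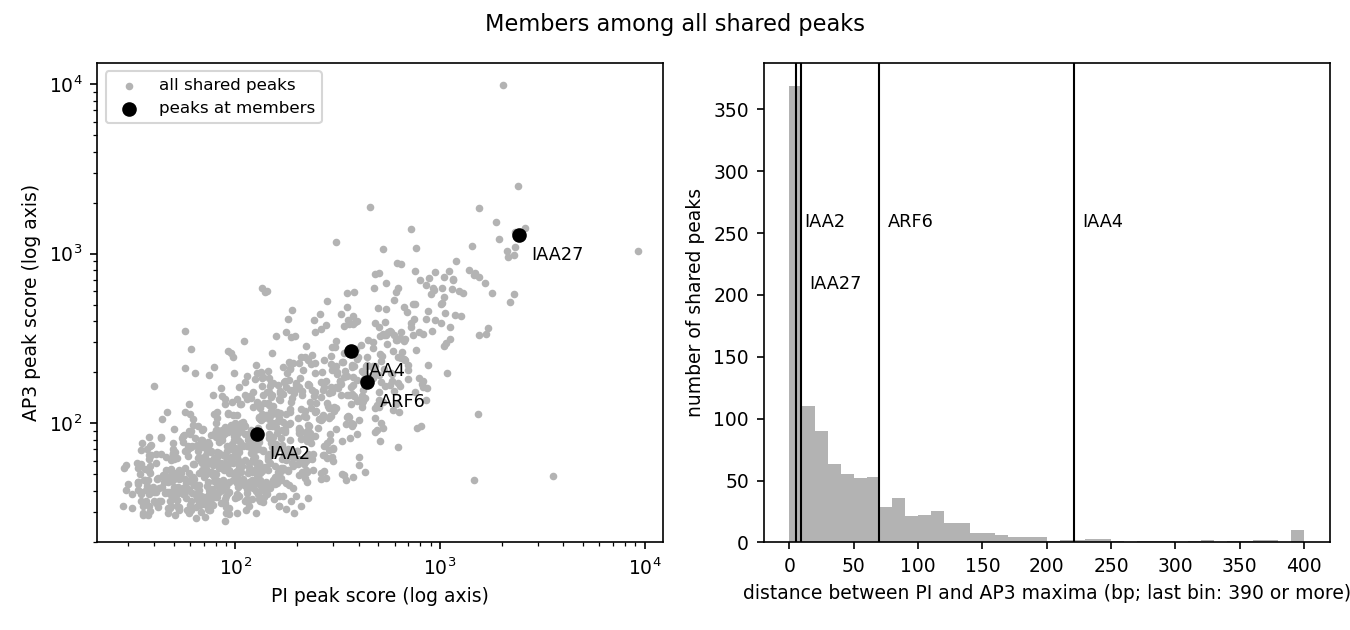
Left, PI against AP3 score (both log axes) of all 1025 shared peaks (grey) and of the 4 members (black). Right, number of shared peaks by the distance between their maxima in bp, with lines at the members. The members lie inside the cloud of all shared peaks, and IAA4, at 221 bp, is in the sparse tail of the distances.

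The other member peaks of PI had no overlapping AP3 peak. ARF5 (AT1G19850; MONOPTEROS, MP), the ARF needed for flower initiation, had the highest of them, with a score of 162 (rank 510). It lay 2000 to 3000 bp upstream at chromosome 1, 6884404 to 6884774 (371 bp), and the nearest AP3 maximum was 14164 bp away. Of the 100 PI peaks nearest to it in rank, 73 overlapped an AP3 peak, so a PI peak of this score without an AP3 partner was in the minority.

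IAA9 (AT5G65670), an Aux/IAA gene with the degron, scored 133 (rank 627) 0 to 1000 bp upstream, at chromosome 5, 26253233 to 26253643 (411 bp). The nearest AP3 maximum was 33165 bp away, and 69 of the 100 PI peaks nearest in rank overlapped an AP3 peak. IAA2, with the slightly lower PI score of 127, did have an AP3 peak, so the PI score alone did not separate the members listed for both from those listed for PI alone.

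IAA26 (AT3G16500; symbol PAP1), described like IAA27 as phytochrome-associated, was the only member with PI scores in more than 1 window, as were 12.3% of all PI-listed genes. Its upstream peak, 0 to 1000 bp from the gene, scored 75.5 (rank 1073) at chromosome 3, 5614119 to 5614754. Its downstream peak scored 50.6 (rank 1388) at 5612170 to 5612396. The upstream peak was wide for its score, at 636 bp (rank 191 by width) against a median of 335 bp in the list. The nearest AP3 maximum was 8114 bp from the downstream peak and 10546 bp from the upstream peak. Among the 100 PI peaks nearest in rank, 48 overlapped an AP3 peak for the upstream peak and 32 for the downstream peak.

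The weakest PI scores belonged to IAA18, IAA17 and IAA15. IAA18 (AT1G51950) scored 48.1 (rank 1462) 2000 to 3000 bp upstream, at chromosome 1, 19302721 to 19303068. IAA17 (AT1G04250; AXR3), in which mutations that stabilise the protein make plants auxin-resistant, scored 43.5 (rank 1537) 1000 to 2000 bp upstream, at chromosome 1, 1134427 to 1134599. IAA15 (AT1G80390) scored 38.0 (rank 1659) 0 to 1000 bp upstream, at chromosome 1, 30222782 to 30222929, and the peak was also listed for AT1G80400. These peaks were near the bottom of the list. Of the 100 PI peaks nearest in rank, 35 overlapped an AP3 peak for IAA18, 22 for IAA17 and 26 for IAA15, so peaks of such scores were usually without an AP3 partner.

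IAA3 (AT1G04240; SHY2), known from stabilised forms that shorten the hypocotyl, was the only member listed for AP3 and not for PI. Its score was 37.9 (rank 1183), 0 to 1000 bp upstream, and 342 of 1524 AP3 peaks scored no higher. On chromosome 1, 7 AP3 peaks had this score, so the place given, 1129483 to 1129681, rests on the order of neighboring loci. IAA3 is the neighbor of IAA17, with no other protein-coding gene between them in the reference table, so AP3 was listed at one gene of the pair and PI at the other. The maxima of these peaks, as placed, were 4888 bp apart, and neither overlapped a peak of the other library. Among the 100 peaks nearest in rank in the same list, 39 overlapped the other list for IAA3 and 22 for IAA17. Peaks of such scores were thus usually without a partner. Both scores were low, and whether either factor binds the other's site below the authors' threshold was not tested.

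**Figure D4:**
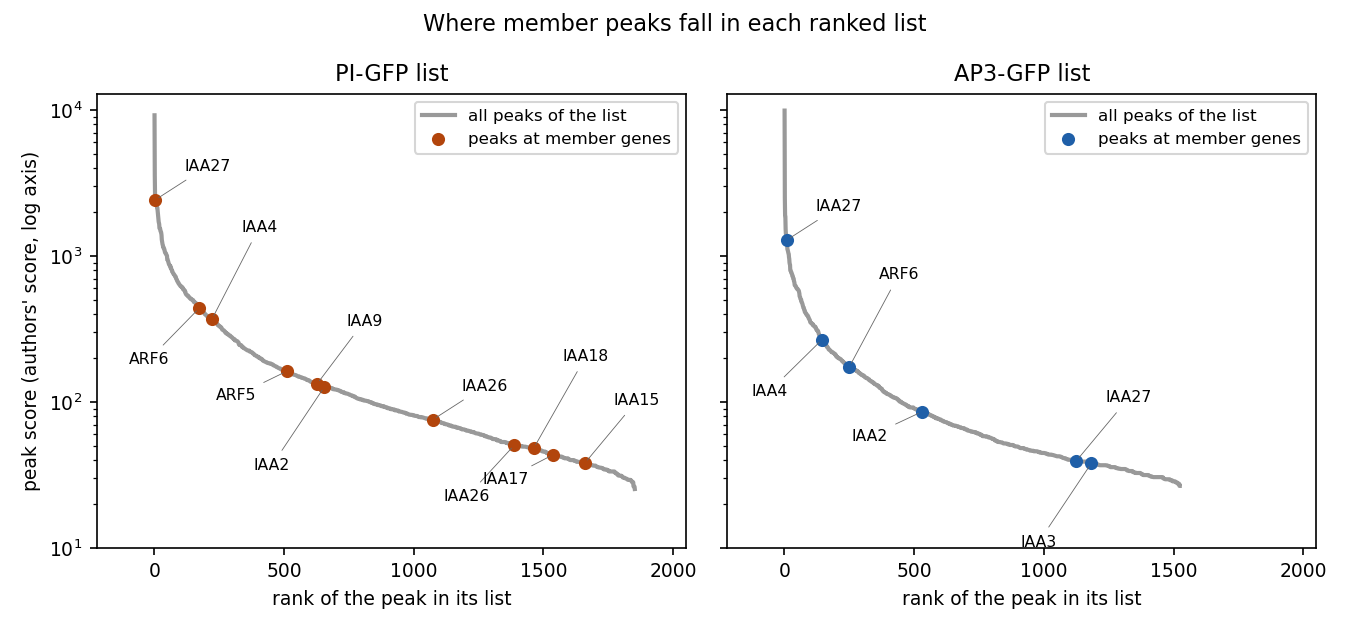
Authors' score (log axis) against rank for all peaks of the PI list (left) and the AP3 list (right), with the peaks at members marked. Member peaks range from rank 4 (PI) and rank 9 (AP3) at IAA27 to rank 1659 (PI, IAA15) and rank 1183 (AP3, IAA3).

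Over the listed members, the median of the highest score was 130 for PI, from 38.0 to 2428, beside a median of 87.7 for all PI-listed genes. For AP3 it was 175, from 37.9 to 1285, beside 58.2 for all AP3-listed genes. Of the members, 6 of 10 for PI and 4 of 5 for AP3 were above the median of their table. The AP3 median rests on 5 genes. Of the PI peaks at members, 4 of 11 overlapped an AP3 peak (55.3% over all PI peaks), and of the AP3 peaks 5 of 6 overlapped a PI peak (69.5% over all AP3 peaks). Those 5 include both AP3 peaks of IAA27, which overlapped the same PI peak.

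All listed members had their highest score upstream, 10 of 10 for PI and 5 of 5 for AP3, where 63.7% of all PI-listed and 57.8% of all AP3-listed genes did. For PI, 5 members had it 0 to 1000 bp upstream (IAA4, IAA9, IAA15, IAA26 and IAA27), 2 had it 1000 to 2000 bp upstream (IAA2 and IAA17) and 3 had it 2000 to 3000 bp upstream (IAA18, ARF5 and ARF6). Both listed ARF members were in the farthest window, which held the highest score of 17.9% of all PI-listed genes. With windows limited to 1000 bp upstream through the gene end, 5 members were listed for PI (4.54% of protein-coding genes) and 3 for AP3 (3.84%), none of them an ARF.

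The other auxin genes were read from lists chosen by role. Of 62 such genes, 8 were listed for PI and 8 for AP3 (12.9% each, against the 8.69% and 7.26% of protein-coding genes), 5 of them for both. Among 13 other ARF genes, ARF3 (ETTIN) and ARF11 were listed for both factors. ARF3, a regulator of gynoecium patterning, scored 830 for PI and 177 for AP3 at 2000 to 3000 bp upstream, the same window as ARF5 and ARF6. Its second PI peak, inside the gene, scored 82.8 and had no AP3 partner. ARF11 scored 77.5 for PI and 33.1 for AP3 0 to 1000 bp upstream, a different window from that of ARF3, ARF5 and ARF6.

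Of the 6 receptor genes, TIR1 was listed, for AP3 alone, with a score of 34.9 downstream. This peak was also listed for AT3G62970. Of the 5 co-repressor genes, TPL was listed for AP3 alone (59.5) and TPR2 for PI alone (78.8), each 0 to 1000 bp upstream. The TPR2 peak was also listed for AT3G16820. Receptors and co-repressors thus had no gene listed for both factors, where 5.32% of protein-coding genes were. Lists of 6 and 5 genes are too small to set a count of 0 apart from that share. All their scores were in the middle or lower part of the lists.

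Among 14 auxin synthesis genes, YUC4, a flavin monooxygenase that acts in flowers, was listed for both factors. It had 2 peaks in each library. The peak 0 to 1000 bp upstream scored 142 for PI and 38.1 for AP3, with maxima 67 bp apart. The peak inside the gene scored 112 and 34.7, with maxima 167 bp apart. Outside the Aux/IAA and ARF families, YUC4 was thus the only gene of these chosen lists with both factors at more than 1 site. Both of its AP3 peaks were weak, at ranks 1180 and 1297 of 1524.

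Among 15 transport genes, the influx carrier gene AUX1 was listed for both factors, but through different peaks, with a PI peak of 56.2 inside the gene and an AP3 peak of 62.4 at 1000 to 2000 bp upstream, whose maxima were 5276 bp apart. Of 9 conjugation and oxidation genes, GH3.3 had overlapping peaks 0 to 1000 bp upstream (126 for PI and 78.5 for AP3, maxima 107 bp apart). GH3.4 (45.8, PI) and GH3.6 (43.6, AP3), which like GH3.3 conjugate auxin to amino acids, were each listed for 1 factor. The GH3.3 peaks were also listed for AT2G23171, and the GH3.4 peak for AT1G59510 and AT1G59520.

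**Figure D5:**
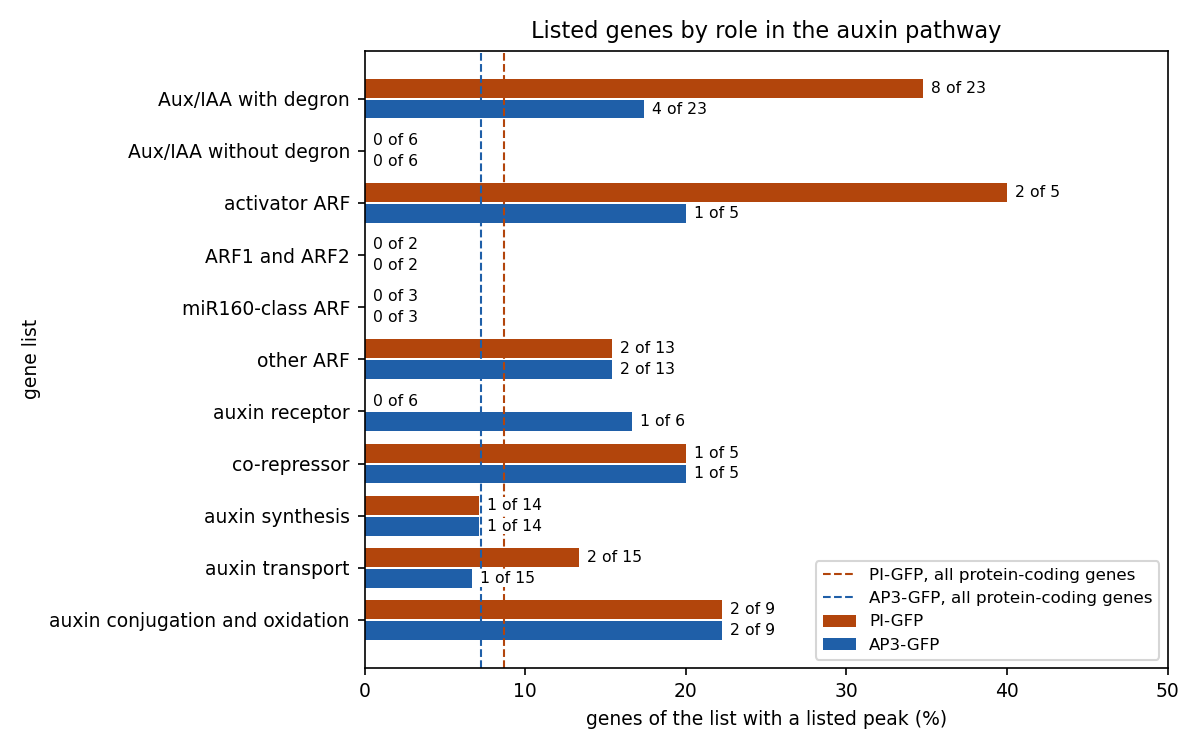
Share of genes with a listed peak (%) in the 5 groups of Aux/IAA and ARF genes and in 6 lists of other auxin genes, with bars for PI-GFP and AP3-GFP, counts beside the bars, and dashed lines at the shares of all protein-coding genes (8.69% for PI and 7.26% for AP3). Most lists hold few genes. The 23 Aux/IAA genes with a degron, the largest list, had 8 listed for PI and 4 for AP3.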

How the data were processed

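Per the submitters' processing notes, reads were processed with BWA 0.6.1 and SAMtools on TAIR10. Which peak caller, threshold and gene models were used is not given in the sources used here. The authors deposited, for each of the 2 libraries, a peak list and a gene table, both with a score, named Poisson in the deposited peak list. Positions, widths and other values in bp are as deposited, per the file headers, 1-based.

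Members and lists were chosen with earlier results of these data known. The naming rule took every listed member and up to 4 genes per other list; 1 item it takes is not reported here. Names and biotypes came from a RefSeq table (assembly TAIR10.1, chromosomes 1 to 5, coordinates not printed), which held 39 of 39 member names and 60 of 62 others. It held 2489 of 2544 PI-listed and 2100 of 2146 AP3-listed genes. A gene was tied to a peak by chromosome and identical score. Where several peaks had that score (IAA2, IAA15 and the downstream peak of IAA26 for PI, IAA3 for AP3, GH3.3, GH3.4, GH3.6, and 1 YUC4 peak), the peak lying between those of neighboring loci was taken, with 5000 bp of slack, a rule chosen after seeing the data. Peaks overlapping by at least 1 bp were called shared, and a peak was paired with the highest-scoring overlapping peak. The overlap and placement steps were tested on simulated data. The simulated peaks were evenly spaced, and each repeated score that was placed had a uniquely placed locus on either side. Placement among unevenly spaced peaks, as in these lists, was therefore not tested. Sequences and motifs were not analysed here. Python 3.11.15 and pandas 2.3.3 were used.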

Additional observations from a re-analysis of the deposited data

How the results depend on the processing

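Each result rests on 1 library per factor, and depth is unknown, so a gene missing from a table may have a peak under the threshold. No paired analysis was possible because each group has 1 library. When only the gene and its 1000 bp upstream counted, 5 members were listed for PI (4.54% of protein-coding genes), 3 for AP3 (3.84%) and 2 for both (2.68%). The median highest score was then 133 for PI and 267 for AP3, beside 81.7 and 56.6 for all listed genes. Without peaks under the median score, 6 members were listed for PI (4.32%). Removing low peaks raises any median, and the medians were 265 for PI and 221 for AP3, beside 180 and 126 for all listed genes. With maxima at most 100 bp apart, 3 of 6 AP3 peaks at members were shared in place of 5 (58.1% of all AP3 peaks in place of 69.5%). With every scored window counted, 1 member had a PI peak downstream (IAA26) and 1 had an AP3 peak inside the gene (IAA27), where no member had its highest score. By construction, the narrower window drops both listed ARF members. Over all alternatives, 27 values were counted as kept and 11 as moved, where a count moved when it changed by more than 1.5 times and a median when it changed at all. Among those kept, lists of equal length left 8 members for PI (7.25% of protein-coding genes), and leaving repeated scores unplaced, chosen after seeing the data, left 3 of 8 PI peaks and 5 of 5 AP3 peaks shared.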

Other observations

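Of the peaks placed at members, 9 of 11 for PI and 5 of 6 for AP3 were listed for the member alone, and the exceptions were at IAA2 (both factors) and IAA15 (PI). A share over all peaks was computed for peaks whose score is unique on their chromosome, which leaves out the PI peaks of IAA2 and IAA15 and the downstream one of IAA26. All 8 such PI peaks at members were listed for the member alone. Over the series, this held for 555 of 1266 such PI peaks with a listed gene (43.8%). For AP3 it held for 4 of 5 peaks at members, where the exception was IAA2, and for 39.6% of 857 such peaks in all. This count was made after the values were seen, and the distance to neighboring genes was not analysed.

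In 13 pairs of closely related members, paired from background knowledge after the values were seen, PI was listed at neither gene in 8 pairs, at 1 gene in 4 and at both in 1. The 4 were IAA2 without IAA1, IAA4 without IAA3, IAA9 without IAA8 and ARF6 without ARF8, and the pair with both was IAA18 and IAA26. For AP3, 10 pairs had neither gene listed, 2 had 1 (IAA2 and ARF6) and 1 had both (IAA3 and IAA4, with scores of 37.9 and 267). ARF6 and ARF8, which act redundantly in flowers, therefore differed in both tables, although a weak peak at ARF8 may lie under the threshold. With 10 members listed for PI and 5 for AP3, few pairs could have both genes listed, and nothing particular to relatives is read from these counts.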
